A study of Homo sapiens with 6 samples.

Results

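*EYA1* was the 1 kidney developmental transcription factor that was called between HEK293T cells with a control hairpin and HEK293T cells labelled as carrying a hairpin against *RREB1*. It rose 3.56-fold (log2 fold change 1.83, SE 0.14, 3 libraries per group), and all 3 sh-*RREB1*-labelled libraries stood above all 3 controls. 8 genes were followed, chosen by name and matched to the gene symbols of the count tables: *PAX2*, *PAX8*, *WT1*, *LHX1*, *SIX2*, *EYA1*, *SALL1* and *GATA3*. They are 8 of 55871 symbols in the tables. Of the 8, 7 reached the minimum of 10 reads summed over the libraries and were tested among 23345 genes, and *PAX8*, with 5 reads in all, was not.

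The kidney forms from the nephric duct, whose branching outgrowth, the ureteric bud, becomes the collecting system, and from the nephron progenitors that surround the bud and become the filtering and reabsorbing segments. *PAX2* and *PAX8*, paired-box factors, with *LHX1*, a LIM-homeodomain factor, set up the nephric lineage, and *GATA3*, a zinc finger factor, acts in the duct. *SIX2*, a homeodomain factor, keeps nephron progenitors undifferentiated, *EYA1* is a transcriptional coactivator and phosphatase that partners SIX2 and its relatives, and *SALL1* and *WT1* are zinc finger factors of the progenitors. *WT1* later marks podocytes of the glomerulus, and *PAX8* is widely used as a marker of renal epithelium.

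HEK293T is a human embryonic kidney line that carries the SV40 large T antigen, grown here in DMEM with serum. 3 libraries came from cells stably expressing a control short-hairpin RNA (sh-control, the controls) and 3 from cells labelled as expressing a hairpin against *RREB1*, a zinc finger transcription factor. Per the study's methods, the hairpins were delivered by lentivirus and the stable lines were selected in neomycin. No further agent is described for these libraries, and all 6 share the line. The question put by the design is which transcripts change when *RREB1* is lowered. Nothing in the labels says that the replicates are separate cultures, so p-values measure only the spread between these libraries, which may be technical. The reads are of whole cultures, in which fewer cells expressing a gene and less RNA per cell cannot be told apart.

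Reads on genes, on the strand of the gene, numbered 23362197 to 33044061 in sh-control and 12257054 to 26145877 in the sh-*RREB1*-labelled libraries. In sh-*RREB1* replicate 3, 52.1% of aligned reads had several positions and were not counted, compared to 3.66% to 7.63% in the other libraries. Of all its reads 26% fell on a gene, compared to 53.5% to 63.9% in the others. Counted on either strand, its reads on genes were 15105456, more than the 12257054 on the strand of the gene. In each other library the count on either strand was the lower one. The targeted gene *RREB1* was at 27.1, 25.2 and 26.6 CPM (reads on the gene relative to all reads on genes, with TMM scaling) in the controls and at 23.7, 24.6 and 23.1 CPM in the sh-*RREB1*-labelled libraries. Its log2 fold change was −0.14 (SE 0.13, edgeR quasi-likelihood adjusted p = 0.485), which did not pass. Each of its sh-*RREB1*-labelled libraries was below each control, and with the trends on GC content and exonic length removed, as described for the factors further on, it was −0.36 (95% interval −0.63 to −0.10, edgeR adjusted p = 0.0534). Over 23 alternatives it lay between −0.44 and −0.06, with adjusted p from 0.011 to 0.786. The fall was thus small and passed 0.01 in none of them, and every direction given here rests on the labels. Of 8 genes described for the HEK293 line, 8 were detected, with a summed level of 551 to 611 CPM in sh-control and 832 to 945 CPM in the sh-*RREB1*-labelled libraries. *VIM*, at means of 340 and 571 CPM in that order, made up most of this sum. None of the 8 was called, and 6 had a log2 fold change above 0 and 2 below. These ran from 0.89 for *NEFL* to −1.05 for *NEFH* (edgeR adjusted p = 0.0037 and 0.135). The blood genes *CD3E*, *HBB* and *HBA1* had no read, and 103 of the reads of the fibroblast collagen *COL1A2* fell in sh-*RREB1* replicate 2, against 1 elsewhere. Summed levels were 4.17 to 5.11 CPM in the controls and 3.80 to 17.3 CPM in the other group for 6 fibroblast markers, 3.67 to 3.83 and 1.74 to 2.29 CPM for 4 endothelial markers, 0.696 to 1.25 and 0.555 to 1.37 CPM for 6 blood markers, and 107 to 129 and 99.8 to 128 CPM for 11 markers of differentiated renal epithelium. *KDR* made up most of the endothelial sum, at means of 3.39 CPM in the controls and 1.62 CPM in the other group. It was called lower (log2 fold change −1.05, edgeR adjusted p = 0.00851). The other endothelial markers had means of at most 0.207 CPM. *LRP2*, at means of 98.6 and 102 CPM, made up most of the renal epithelium sum. Of 6 renal epithelium markers tested, 4 had a log2 fold change above 0 and 2 below. The part of these marker genes in the results below was not tested.

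Calls required both an edgeR quasi-likelihood p below 0.01 after Benjamini-Hochberg adjustment over all genes tested and a log2 fold change above 1 in size. Of all genes tested, 3.41% were called, and 2.71% were called higher in the sh-*RREB1*-labelled libraries. Of the 7 factors tested, 1 was called, *EYA1*, and none was called lower. In 6 of the 7, all but *LHX1*, every sh-*RREB1*-labelled library was above every sh-control library, which was so for 21.1% of all genes tested. The median log2 fold change of the 7 was 0.67, compared to 0.01 over all genes tested. The median GC content of their exons was 55%, and fold changes followed GC content, as given further on. With the trends on GC content and exonic length removed, the medians were 0.49 and −0.03.

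**Figure D1:**
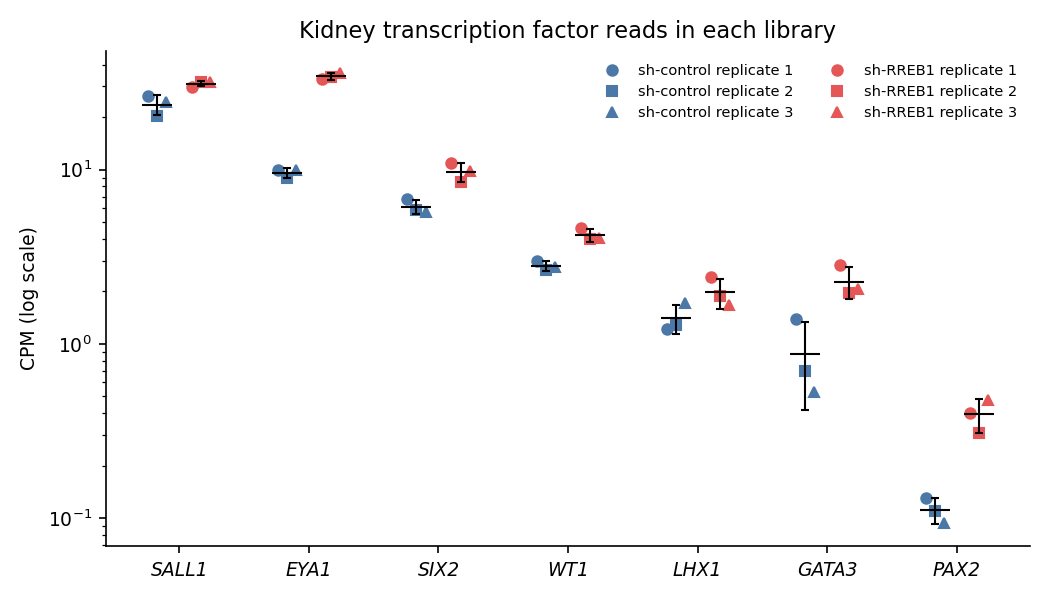
CPM (log axis) of the 7 factors with enough reads, in each of the 3 sh-control libraries (blue) and the 3 sh-RREB1-labelled libraries (red), with the mean as a bar and 1 SD as the error. EYA1 shows the widest gap among the well-covered factors, 8.90 to 10.0 CPM against 32.9 to 35.7 CPM, while LHX1 overlaps between the groups and PAX2 lies below 0.5 CPM throughout.

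*EYA1* (ENSG00000104313) lies on chromosome 8 of GRCh38 from 71197433 to 71592025 on the minus strand. In sh-control it had 228, 242 and 322 reads, or 9.91, 8.90 and 10.0 CPM. In the sh-*RREB1*-labelled libraries it had 817, 892 and 451 reads, or 32.9, 34.1 and 35.7 CPM. The groups did not overlap, and the lowest sh-*RREB1*-labelled library was 3.28 times the highest control. The mean was 9.61 ± 0.621 CPM (SD, n = 3) in the controls and 34.2 ± 1.44 CPM (SD, n = 3) in the other group. The log2 fold change was 1.83 (SE 0.14, 95% interval 1.51 to 2.15, edgeR adjusted p = 0.000671). Without sh-control replicate 2 it was 1.75 (edgeR adjusted p = 0.0192), and without sh-*RREB1* replicate 3 it was 1.80 (edgeR adjusted p = 0.0116), so the size held in both while the call was lost. Without sh-*RREB1* replicate 2, the library with the collagen reads, it was 1.84 and called.

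*SIX2*, the DNA-binding partner of EYA1 in nephron progenitors, moved less. It lies on chromosome 2 from 45005182 to 45009452 on the minus strand, in GRCh38. Reads were 155, 159 and 183 in the controls and 271, 221 and 123 in the sh-*RREB1*-labelled libraries. The levels were 6.74, 5.85 and 5.70 CPM in the controls and 10.9, 8.44 and 9.75 CPM in the other group. The lowest of the latter was 1.25 times the highest control, so the groups did not overlap. The log2 fold change was 0.67 (SE 0.18, 95% interval 0.27 to 1.07) and did not pass the threshold (edgeR adjusted p = 0.0301).

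*WT1* lies on chromosome 11 from 32387775 to 32435564 on the minus strand, and *SALL1* on chromosome 16 from 51135982 to 51152334 on the minus strand. *WT1* was at 3.0, 2.65 and 2.77 CPM in the controls and at 4.63, 3.97 and 4.04 CPM in the sh-*RREB1*-labelled libraries. *SALL1* was at 26.3, 20.2 and 24.3 CPM in the controls and at 29.9, 31.7 and 31.6 CPM in the other group. Both sets of libraries separated without overlap, by smaller gaps than *EYA1*: the lowest library of the higher group was 1.32 times the highest control for *WT1* and 1.14 times for *SALL1*. The log2 fold change was 0.59 for *WT1* (SE 0.18, edgeR adjusted p = 0.0509) and 0.40 for *SALL1* (SE 0.14, edgeR adjusted p = 0.0862), so neither passed. *SALL1* had the most reads of the 8 factors, 3908 over the 6 libraries, and its 95% interval on the log2 scale ran from 0.07 to 0.73.

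The factors of the nephric duct had fewer reads. *GATA3*, on chromosome 10 from 8045378 to 8075198 on the plus strand, had 32, 19 and 17 reads in the controls and 70, 51 and 26 in the sh-*RREB1*-labelled libraries. Its level was 1.39, 0.699 and 0.529 CPM in the controls and 2.82, 1.95 and 2.06 CPM in the other group. Replicate 1 was the highest library in both groups, and the groups did not overlap. The log2 fold change was 1.42 (SE 0.36, 95% interval 0.60 to 2.24), above the fold minimum, and the edgeR adjusted p of 0.027 did not pass. DESeq2, the test of the study's methods, gave 1.40 (adjusted p = 0.00483) and called it. By DESeq2, 2 of the 7 factors were called, *EYA1* and *GATA3*, compared to 7.06% of all genes tested. *PAX2* received no adjusted p from DESeq2. *SIX2*, at 0.66, passed its p threshold (DESeq2 adjusted p = 0.007) but not the fold minimum. Without sh-control replicate 1, the highest control, the edgeR estimate for *GATA3* was 1.87 (edgeR adjusted p = 0.003), and over the other libraries left out it lay between 1.12 and 1.54.

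*LHX1*, on chromosome 17 from 36936785 to 36944612 on the plus strand, was at 1.22, 1.29 and 1.71 CPM in the controls and at 2.41, 1.87 and 1.66 CPM in the sh-*RREB1*-labelled libraries. The groups overlapped, since sh-*RREB1* replicate 3, with 21 reads, lay below sh-control replicate 3, with 55. The log2 fold change was 0.50 with a 95% interval from −0.06 to 1.07 (edgeR adjusted p = 0.19), so at this depth neither no change nor a 2-fold rise lay outside it. *LHX1-DT*, a long noncoding gene on the opposite strand whose start is 115 bases away, was at 1.78, 1.77 and 1.37 CPM in the controls and at 2.74, 2.67 and 2.14 CPM in the other group. Its groups did not overlap, and its log2 fold change was 0.64 (SE 0.22, edgeR adjusted p = 0.0725).

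The PAX factors that set up the renal lineage were barely read in this kidney-derived line. *PAX2*, on chromosome 10 from 100735396 to 100829944 on the plus strand, had 3, 3 and 3 reads in the controls and 10, 8 and 6 in the sh-*RREB1*-labelled libraries. The summed 9 and 24 reads, relative to depth, give a ratio of 3.45 with a 95% counting interval from 1.55 to 8.43, which covers counting error only. The edgeR adjusted p was 0.0339, which did not pass. *PAX8*, on chromosome 2 from 113215997 to 113278921 on the minus strand, had 1, 0 and 1 reads in the controls and 1, 1 and 1 in the other group, at or under the 3 reads that a count of 0 allows, so no fold is given. *PAX8-AS1*, the antisense gene that overlaps it, had 22 reads over the 6 libraries and differed by −0.14 on the log2 scale (edgeR adjusted p = 0.903). *GATA3-AS1* had 1, 1 and 2 reads in the controls and 5, 6 and 1 in the other group. *WT1-AS*, whose start is 46 bases from that of *WT1*, was at 0.343 to 0.652 CPM in the controls and 0.396 to 0.535 CPM in the sh-*RREB1*-labelled libraries, so the groups overlapped where those of *WT1* did not.

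Fold changes in these libraries followed the GC content of the exons. Among expressed genes, the decile with exons of 26.7% to 38.3% GC had a median log2 fold change of −0.23, and the decile of 59.7% to 73.8% had a median of 1.11. *EYA1*, with 42.7% GC, lies in a decile whose median was −0.23, so its 1.83 stood against the trend. *PAX2* and *SIX2*, with 61.6% and 61.5% GC, lie in the highest decile, and the 0.67 of *SIX2* was below the median of its decile. *GATA3*, with 55.0% GC, exceeded the 0.32 of its decile, and *WT1* and *SALL1*, with 50.5% and 50.1% GC, exceeded the 0.10 of theirs. *LHX1*, with 56.2% GC, had 0.50 where the median of its decile was 0.61.

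**Figure D2:**
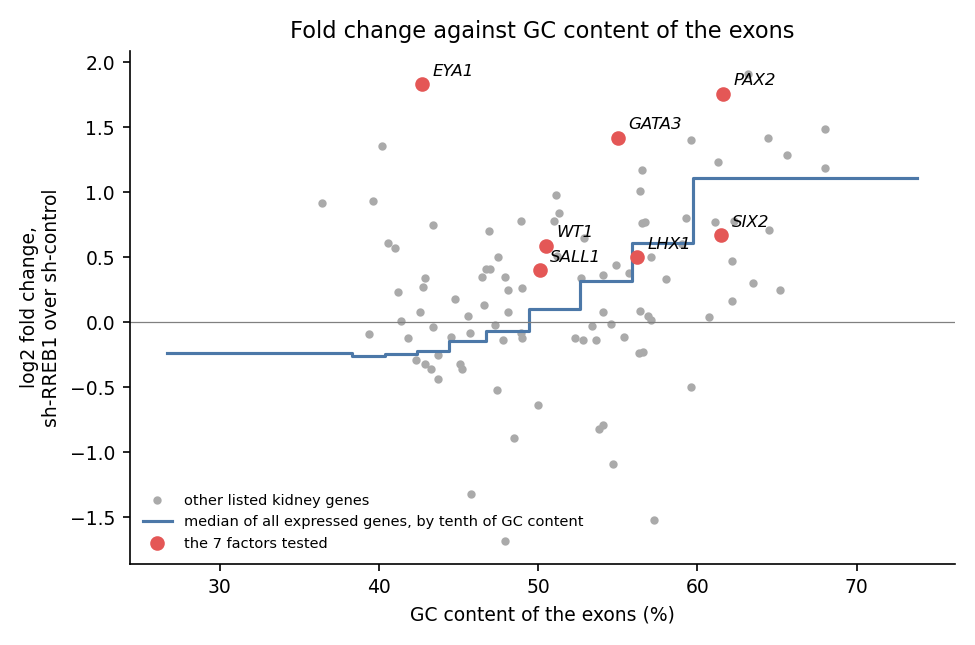
Log2 fold change of the sh-RREB1-labelled libraries over sh-control against the GC content of the exons in percent, for the 7 factors tested (red) and the other listed kidney genes tested (grey), with the median of all expressed genes in each decile of GC content as a step line. EYA1 stands at 1.83 where the line is at −0.23, and SIX2 at 0.67 where the line is at 1.11.

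With each library's smooth trend on GC content and exonic length removed as an offset, 3.02% of all genes tested were called, and of the 7 factors *EYA1* alone. Its log2 fold change became 2.0 (SE 0.11, edgeR adjusted p = 2.19e-06). The call was kept in 6 of 6 fits that also left out a library, at 1.96 to 2.06. *SIX2* turned in direction, to −0.38 with a 95% interval from −1.06 to 0.29 (edgeR adjusted p = 0.418), and to 0.06 when sh-control replicate 1 was also left out. The difference of that library from the other controls was −1.07 on the log2 scale at the median of the highest GC decile, where *SIX2* lies, although its *SIX2* level was the highest of the controls. *LHX1* came to 0.01 (edgeR adjusted p = 0.979) and *PAX2* to 0.76 (edgeR adjusted p = 0.412). *WT1* and *SALL1* moved little, to 0.49 and 0.32 (edgeR adjusted p = 0.0741 and 0.099), and *GATA3* to 1.04 (edgeR adjusted p = 0.107). Under the offset, the 95% intervals of *EYA1*, *GATA3*, *WT1* and *SALL1* lay above 0, and those of *SIX2*, *LHX1* and *PAX2* included 0. The groups differ in their trends, and such an offset also removes a real change that follows GC content.

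**Figure D3:**
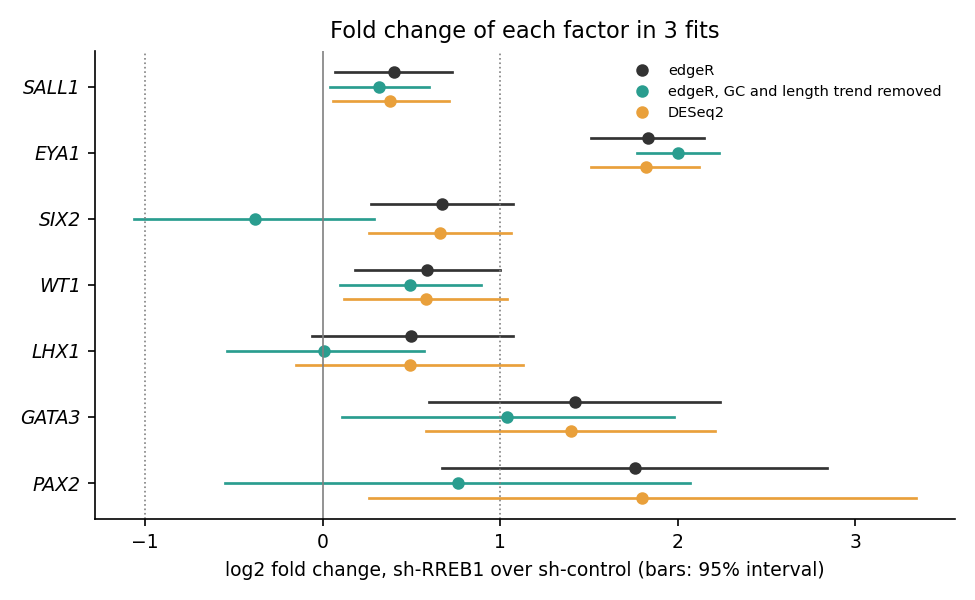
Log2 fold change of each factor, sh-RREB1-labelled libraries over sh-control, with its 95% interval, by edgeR (black), by edgeR with the GC content and length trend removed (green) and by DESeq2 (orange). Dotted lines mark the minimum fold of a call. EYA1 lies wholly above 1 in all 3 fits, from 1.82 to 2.0, and SIX2 changes sign with the trend removed.

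**Figure D4:**
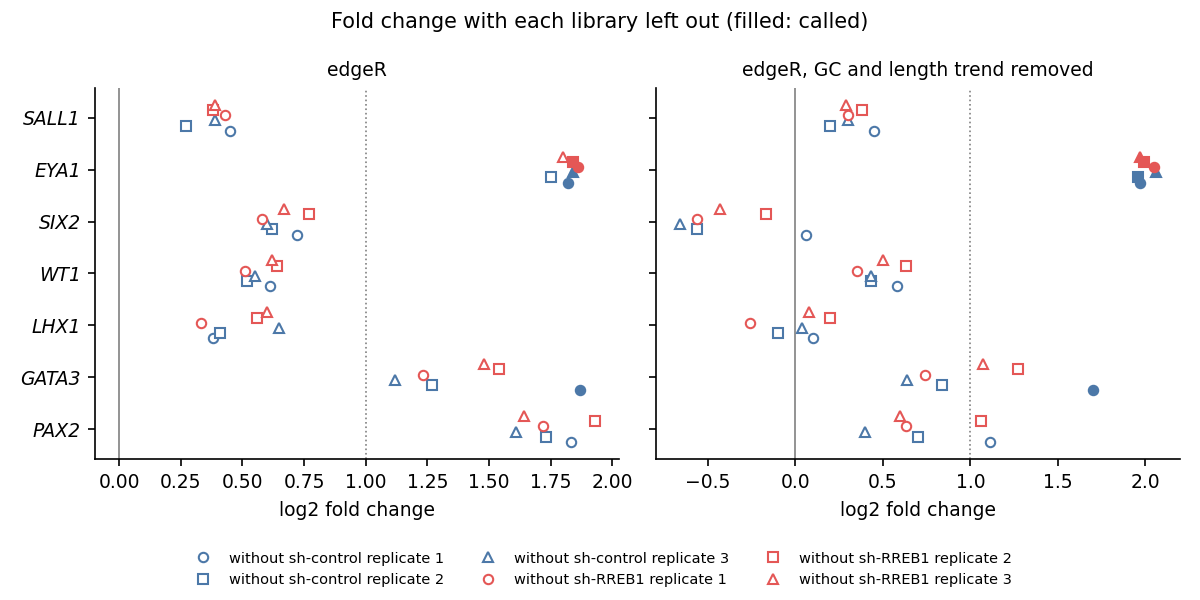
Log2 fold change of each factor with 1 library left out, by edgeR (left) and by edgeR with the GC content and length trend removed (right), with filled symbols for calls and open symbols for none. EYA1 stays between 1.75 and 2.06 in all 12 fits, and GATA3 is called only without sh-control replicate 1, at 1.87 and 1.70.

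Compared per kilobase of exon, so that genes of different length can be ranked, the factors covered a wide range of levels. The mean over the 6 libraries was 4.34 CPM per kb for *SALL1*, 3.58 for *SIX2* and 2.35 for *EYA1*, then 0.464 for *GATA3*, 0.432 for *WT1*, 0.345 for *LHX1*, 0.0384 for *PAX2* and 0.00525 for *PAX8*. *SALL1* was at the 67.5th percentile and *PAX2* at the 4.34th percentile of the levels of genes tested, whose median was 1.44 CPM per kb. The step from *EYA1* down to *GATA3* held in 6 of 6 libraries, and so did those from *LHX1* to *PAX2* and from *PAX2* to *PAX8*. *SALL1* stood above *SIX2* in 5 of 6 libraries, *GATA3* above *WT1* in 4 of 6, and *WT1* above *LHX1* in 5 of 6, so these neighbours are not separated beyond their spread. The order of *GATA3*, *WT1* and *LHX1* also differed by group. In the controls *GATA3*, at 0.257 CPM per kb, came after *WT1* at 0.345 and *LHX1* at 0.286. In the other group it came before them, at 0.67 against 0.518 and 0.404. With the longest transcript as the length, *EYA1* and *SIX2* changed places in 3 of 6 libraries, and *WT1* was above *GATA3* in 6 of 6. *EYA1* made up 12.2% of the summed level per kb of the 8 factors in the controls and 25% in the sh-*RREB1*-labelled libraries.

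Each of the 7 factors with paralogs in the list was outranked per kilobase, in 6 of 6 libraries, by another gene of its family. *EYA3*, at 28.1 CPM per kb, was the most abundant EYA gene, and *EYA1* ranked 3 of 4. *EYA1* was 2.73% ± 0.212 (SD, n = 3) of the summed EYA level in the controls and 9.55% ± 0.504 (SD, n = 3) in the sh-*RREB1*-labelled libraries. The family sum was 37.9 ± 1.49 and 38.5 ± 2.04 CPM per kb in the same order, a difference smaller than 1 SD. *EYA2*, *EYA3* and *EYA4* differed by 0.08, −0.08 and −0.09 on the log2 scale (edgeR adjusted p = 0.81, 0.631 and 0.639).

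*SIX4*, at 12.1 CPM per kb, stood above *SIX2*. *SALL2*, at 8.52 CPM per kb, led *SALL1*, and *GATA6*, at 2.84, led *GATA3*, which ranked 4 of 6. *LHX8*, at 1.13 CPM per kb, led *LHX1*, and *PAX6*, at 2.24, led *PAX2* and *PAX8*. Of the 30 paralogs 23 were tested and none was called, with a median log2 fold change of 0.08, or −0.10 with the GC and length trend removed, and *PAX4*, *LHX3*, *LHX5* and *SIX6* had no read.

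**Figure D5:**
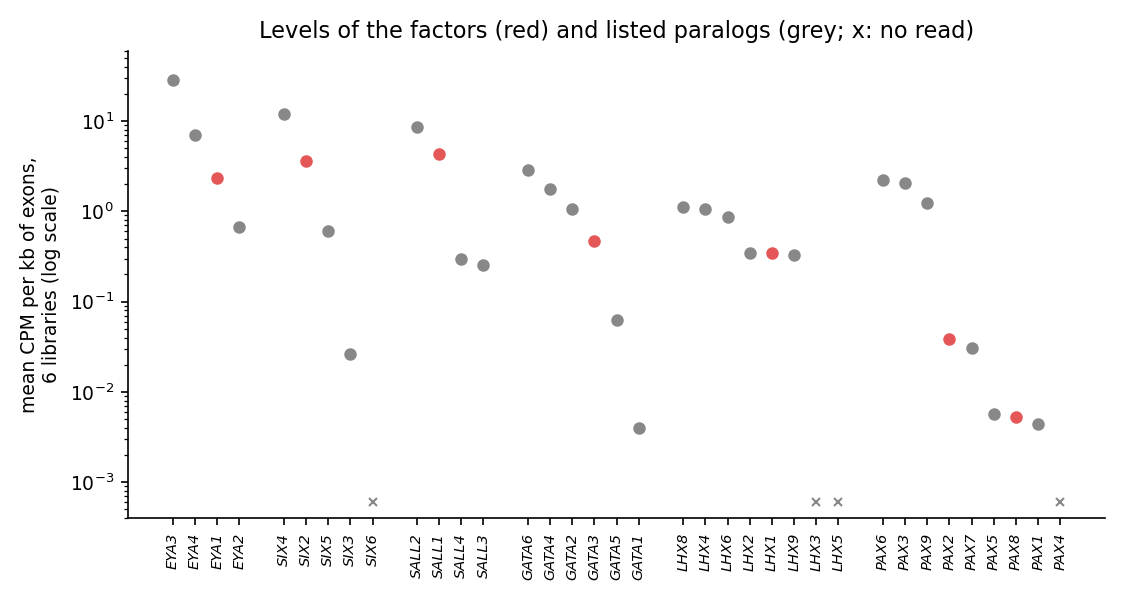
Mean level over the 6 libraries in CPM per kb of exons (log axis) of the factors (red) and of listed paralogs (grey), ordered by level within each family, with a cross for genes without a read. In every family a grey point stands highest, from EYA3 at 28.1 to LHX8 at 1.13 CPM per kb.

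Other genes of kidney development were read from 4 lists. Of 38 other transcription factors of the nephric lineage 27 were tested, and the median log2 fold change was 0.04. *FOXD1*, a factor of the renal stroma, was called higher. It was at 5.61, 5.48 and 6.70 CPM in the controls and at 19.8, 12.2 and 15.8 CPM in the sh-*RREB1*-labelled libraries, without overlap, and its log2 fold change was 1.42 (SE 0.21, edgeR adjusted p = 0.00491), or 0.08 with the GC and length trend removed. *HEY1*, *FOXC1*, *HOXA11* and *HES1* were the most abundant per kilobase. *HOXA11*, a homeobox factor of the metanephric mesenchyme, had −0.82 (edgeR adjusted p = 0.0108) and was called lower, at −1.09 (edgeR adjusted p = 1.61e-05), with the trend removed. *IRX1*, *IRX2* and *SOX17* had no read.

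Of 12 cofactors of the 8 factors 11 were tested, with a median log2 fold change of 0.08. *LMO2*, a LIM-only adaptor, was called lower, from 1.57, 1.40 and 1.71 CPM in the controls to 0.483, 0.688 and 0.396 CPM, and its log2 fold change was −1.52 (SE 0.29, edgeR adjusted p = 0.00965) and −2.12 with the trend removed. Its groups did not overlap. *LDB1*, the LIM-domain partner that binds LHX1 and LMO proteins, had 0.60 (edgeR adjusted p = 0.144). *CITED2* was at 0.78 (edgeR adjusted p = 0.0444), and *LMO4* and *BASP1*, the latter a corepressor of WT1, were at 0.08 and −0.01.

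Of 27 signalling genes of kidney induction 24 were tested and none was called, with a median log2 fold change of 0.33, or 0.07 with the trend removed. *SLIT2*, a guidance ligand, *NOTCH2*, *WNT5A* and *ITGA8*, an integrin of the mesenchyme around the ureteric bud, were the most abundant per kilobase. *ITGA8* was at 36.4, 29.3 and 28.9 CPM in the controls and at 52.3, 55.6 and 51.0 CPM in the sh-*RREB1*-labelled libraries. Its log2 fold change of 0.75 passed the p threshold (edgeR adjusted p = 0.00883) but not the fold minimum. *ROBO2*, the receptor of SLIT2, was at 0.93 (edgeR adjusted p = 0.00528) and was called, at 1.14, with the trend removed.

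Markers of differentiated nephron and collecting duct segments were sparse. Of 19 such genes 9 were tested, and *SLC34A1*, *SLC22A6*, *UMOD*, *AQP2* and *CDH16* had no read in any library. *LRP2*, the endocytic receptor of the proximal tubule, *PODXL*, *CDH1* and *EPCAM* were the most abundant per kilobase. *CUBN*, which works with LRP2 in protein uptake, was called lower. It was at 8.30, 5.37 and 5.89 CPM in the controls and at 2.17, 3.13 and 2.46 CPM in the sh-*RREB1*-labelled libraries, and its log2 fold change was −1.32 (SE 0.24, edgeR adjusted p = 0.00897). *LRP2* was at 0.05 (edgeR adjusted p = 0.84). *CDH1*, the epithelial cadherin, had −0.89 and passed the p threshold (edgeR adjusted p = 0.0093) but not the fold minimum. The median log2 fold change of the 9 was 0.25.

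Profiles over the 6 libraries were compared by the root mean square difference of log2 CPM, each gene centred on its own mean, over 14507 genes with a mean of at least 1 CPM. Nearest to *EYA1* was *CCND2*, a D-type cyclin, at 0.042, with 60.8, 59.1 and 64.1 CPM in the controls and 215, 220 and 220 CPM in the sh-*RREB1*-labelled libraries, and then *TENM3-AS1* at 0.0479, where the median gene was at 0.943. *SIX2* had *ZBTB21* and *PDE5A* nearest, at 0.0475 and 0.0494. Of the other factors, *WT1* was its 17th nearest gene at 0.0799, *SALL1* the 465th at 0.203 and *LHX1* the 1133rd at 0.26. *GATA3* was the 9020th at 0.524 and *EYA1* the 11241st at 0.602, where the median gene was at 0.477. *WT1* had ENSG00000283341 and *FERMT1* nearest, at 0.044 and 0.0447, *SALL1* had *LRFN5* and *PPARGC1B*, at 0.0583 and 0.062, and *LHX1* had ENSG00000267940 and *SLC45A4*, at 0.0702 and 0.088. *GATA3* had *RPS16* and *BCL11B* at 0.195 and 0.201, the least close of these pairs. All profiles share the same 6 libraries, with their depth and GC trends.

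Promoter sequences of *PAX2*, *PAX8*, *WT1*, *SIX2* and *GATA3* were taken from RefSeq (GRCh38.p14), as the 250 bases before the start of the main transcript. *LHX1*, *EYA1* and *SALL1* are named only. Those of *SIX2* and *GATA3* are shown because each holds a match to a searched motif, and that of *WT1* is shown beside them as one without a match. *SIX2* is chr2:45009453-45009702 on the minus strand, *WT1* chr11:32435540-32435789 on the minus strand and *GATA3* chr10:8054438-8054687 on the plus strand. Each is written 5′ to 3′ on the strand of the gene, with motif matches in capitals.
SIX2: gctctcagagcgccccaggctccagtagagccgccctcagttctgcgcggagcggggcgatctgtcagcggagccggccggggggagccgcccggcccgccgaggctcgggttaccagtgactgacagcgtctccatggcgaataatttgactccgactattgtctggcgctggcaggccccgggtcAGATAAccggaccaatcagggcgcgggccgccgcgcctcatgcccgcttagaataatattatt
WT1: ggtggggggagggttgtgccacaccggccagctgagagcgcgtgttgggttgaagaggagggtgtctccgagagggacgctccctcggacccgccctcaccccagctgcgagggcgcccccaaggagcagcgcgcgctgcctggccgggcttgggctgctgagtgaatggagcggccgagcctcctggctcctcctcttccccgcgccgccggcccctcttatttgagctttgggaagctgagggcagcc
GATA3: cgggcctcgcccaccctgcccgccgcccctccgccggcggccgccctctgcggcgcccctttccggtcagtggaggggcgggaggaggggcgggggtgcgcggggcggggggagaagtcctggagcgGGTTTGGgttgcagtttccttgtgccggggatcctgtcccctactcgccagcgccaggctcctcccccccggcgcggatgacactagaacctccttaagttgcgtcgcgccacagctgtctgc

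The letters searched, on both strands, were CCAAACC for RREB1, AGATAA for GATA factors and TCAGGTT for SIX2 and its relatives. Of 15108 promoters of this length, 1 for each gene, 3.70% held the RREB1 letters, 6.51% the GATA letters and 2.29% the SIX2 letters. The *GATA3* promoter held 1 match to the RREB1 letters, as their reverse complement, whose first printed base lies 123 bases before the start. The *SIX2* promoter held 1 match to the GATA letters, which begins 63 bases before the start. The *WT1*, *PAX2* and *PAX8* promoters held no match to any of the motifs in this window. A match is a string of letters and does not show binding. The 5 promoters had 61.6% to 73.6% GC and 11 to 26 CG pairs, where the median promoter had 63.2% GC and 19 CG pairs.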

How the data were processed

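RNA was measured in 3 sh-control and 3 sh-RREB1 libraries of HEK293T cells, made with a strand-specific total RNA kit. Per the study's methods, alignment used STAR 2.4.2a, hg38 and Gencode 25. The deposited values are unnormalized STAR counts of reads on each gene, as 1 table a library and as a merged table. Sense-strand counts were taken, and for the 8 factors both kinds of table held the same ones. Identifiers were collapsed to the symbol's most-read one, giving 55871 symbols, and genes with 10 or more reads in total, 23345, entered a quasi-likelihood fit in edgeR 4.0.16 (R 4.3.3) with TMM scaling, 1 term for the group and Benjamini-Hochberg adjustment over all of them. DESeq2 1.42.0 was an alternative. The thresholds (adjusted p below 0.01, absolute log2 fold change above 1) and the filter follow the study's methods.

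GC content, exonic length and positions came from Gencode 44 on GRCh38. The offset for GC content and length used natural splines with 5 degrees of freedom. CPM use effective library sizes, and intervals are at 95% (the PAX2 ratio by the exact Clopper-Pearson method, conditional on the summed reads). Groups follow the labels. Other alternatives were the merged table, reads of either strand, other filters, scalings and thresholds, the replicate number as a block, and each library left out.

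The factors, the gene lists and the tests were chosen with earlier results of these data known. Named are the factors, RREB1, genes overlapping or antisense to a factor or starting within 5000 bases of its start, and from each list the genes called, the 4 most abundant per kilobase and those without a read, plus the 2 nearest profiles of each factor with a mean of 1 CPM or more. EYA2, EYA4, GATA-family and other paralogs, LDB1 and CDH1 come from these lists. Depth, from 12257054 to 33044061 reads on genes, and 3 libraries per group limit precision. Some listed genes are not reported here. Differential tables, ChIP-seq and QPCR were not analysed here.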

Additional observations from a re-analysis of the deposited data

Results flagged for a closer look

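Among the 8 factors, reads on the strand opposite to *PAX8* were the 1 signal flagged outside the counts used. The gene's own strand had 5 reads over the 6 libraries and the opposite strand 10, which is 66.7% of the reads of both. In sh-*RREB1* replicate 2 the opposite strand had 5 reads, above the 3 reads that a count of 0 allows and above the 1 or 2 reads of each sh-control library. In sh-*RREB1* replicates 1 and 3 it had 1 and 0. *PAX8-AS1*, which overlaps *PAX8* on that strand, had 5 reads of its own in sh-*RREB1* replicate 2. Whether these are the same reads was not tested. A flag required an sh-*RREB1*-labelled library above 3 reads and above every control, so higher controls could not raise one. For the other 7 factors the opposite strand had at most 0.463% of the reads. *SALL1* had 1, 4 and 6 such reads in the controls and 5, 0 and 0 in the other group, and was not flagged.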

How the results depend on the processing

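Of all genes tested 795 were called. The count was 2037 at an adjusted p below 0.05, 1285 with no minimum fold and 1647 with DESeq2. With a minimum of 1 read it was 1804 of 33059 genes tested. With a library left out it ran from 8 to 1120. It was 1120, 9 and 384 without control 1, 2 and 3, and 25, 136 and 8 without sh-*RREB1* replicate 1, 2 and 3. With the GC and length trend also removed it ran from 458 to 715, with 507 without control 2 and 492 without sh-*RREB1* replicate 1. Among the factors 1 was called. At an adjusted p below 0.05 it was 3, where 8.73% of all genes tested were called, and with DESeq2 2, where 7.06% were. The number of factors called was 2 with a minimum of 1 read, where 1804 of 33059 genes were called. It was 0 to 2 with a library left out, or 1 to 2 with the trend removed as well. The other listed kidney genes tested were 23 paralogs, 27 transcription factors, 11 cofactors, 24 signalling genes and 9 segment markers. Of them 3 were called, where 3.41% of all genes tested were. Their count was 8 at an adjusted p below 0.05, 6 with no minimum fold, 6 with DESeq2 and 7 with a minimum of 1 read. It was 1 with both strands together, 0 to 4 with a library left out, and 4 to 5 with the trend removed as well. The cause of these moves was not tested.

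The replicate number as a block gave 1685 of 23345 genes tested, 2 factors (*EYA1* and *GATA3*) and 6 other listed genes, and 7 of the latter with the GC and length trend removed. Deviations from the group means correlated at 0.501, 0.434 and −0.275 between libraries of the same number, so the numbers were not taken as pairs.

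*EYA1* was higher in 23 of 23 alternatives and called in 21, and *GATA3* in 23 and 5. *WT1* and *SALL1* were higher in 23 of 23 and *PAX2* in 22 of 22, with no call. *SIX2* reversed with the trend removed, to −0.38, to −0.39 with the block, and to −0.56 and −0.66 without control 2 and 3, and to −0.56, −0.17 and −0.43 without sh-*RREB1* replicate 1, 2 and 3. *LHX1* reversed to −0.03 with the trend removed and the block, and, with the trend removed and no block, to −0.10 without control 2 and −0.26 without sh-*RREB1* replicate 1. Depth limits *PAX2* and *PAX8* most.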
